A study of Homo sapiens with 6 samples.

Results

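Transcripts of the inhibin and activin system, 9 genes in all, were examined in HepG2, an established hepatocyte-like line from a human liver tumour. The 9 genes were taken by their symbols in the deposited log2 FPKM table and joined by Ensembl identifier to the count table, which lists 60504 genes. They comprise the subunit genes INHA, INHBC and INHBE, the binding protein genes FST and FSTL3, the receptor genes ACVR1B, ACVR2A and ACVR2B, and OBSL1, which overlaps INHA on the opposite strand. The symbols were selected on measured values, the fold changes of oridonin against DMSO in these same libraries, where INHA and INHBE were among the genes with the lowest fold changes. The fold changes and calls of the 9 genes are therefore given as a description, without p-values. One group of 3 libraries came from cells kept for 48 h in 0.1% DMSO, the solvent control. The other group of 3 came from cells kept for 48 h in 10 µM oridonin, a diterpenoid from Isodon rubescens, and the labels do not state its DMSO content. Both groups were adherent cultures in DMEM in multiwell plates, and there were 6 libraries in all. The labels do not say whether the 3 wells of a group were separate cultures, so a p-value speaks only of the spread among these samples, and that spread may be technical.

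Inhibins and activins are dimers of the TGF-beta family. An activin is made of a pair of beta subunits, whereas an inhibin pairs a beta subunit with the alpha subunit encoded by INHA and opposes activin. Activins bind a type II receptor, encoded by ACVR2A or ACVR2B, which activates a type I receptor such as that encoded by ACVR1B, and the type I receptor phosphorylates SMAD2 and SMAD3. Follistatin and its relative FSTL3 bind activins in the extracellular space and keep them from their receptors. The liver is the main site of expression of the beta C and beta E subunits, encoded by INHBC and INHBE, and the beta E subunit is secreted by hepatocytes as a hormone that acts on fat tissue.

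Total counts ran from 22250202 to 30739574 per library, and genes that passed the expression filter took between 99.888% and 99.922% of them. Levels are given as CPM, counts scaled to a common library size with TMM factors for library composition, for comparisons between libraries. Levels of different genes are compared as FPKM, which is also scaled by gene length, back-calculated from the deposited log2 values. A gene was called when its Benjamini-Hochberg adjusted p over all 15116 tested genes was under 0.05 in edgeR's quasi-likelihood test. This held for 6332 genes (41.9%), 3118 higher and 3214 lower with oridonin, or 4487 higher and 2359 lower when libraries were scaled by total counts only. Of 4 markers of other leukocytes, PTPRC, CD3E and CD68 had at most 3 counts in any library, whereas LYZ, the lysozyme gene, ran from 667 to 689 CPM of total counts in DMSO and from 426 to 466 in oridonin. The B cell marker MS4A1 had 0 counts. The summed level of all 6 B and plasma cell markers ran from 1.39 to 12.9 in DMSO and from 33.3 to 75.1 in oridonin, and that of 4 gut epithelial markers from 0.809 to 1.51 and from 3.64 to 7.77. Every oridonin library was above every DMSO library for 5 of the 6 and for 2 of the 4. PIGR, a gut marker, ran from 0.0899 to 0.315 in DMSO and from 1.66 to 5.71 in oridonin. FABP2, another, ran from 0.409 to 0.539 and from 0.217 to 0.499. The part of all these markers in the differences of the 9 genes was not tested.

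Promoter windows were looked up first for the genes that lie in pairs, because INHA and OBSL1 are transcribed away from each other and both fell. RefSeq (GRCh38.p14) gave windows for 8 of the 9 genes, each running from 250 bases before a RefSeq start site to 50 bases after it. The RefSeq start sites of INHA (219572310) and OBSL1 (219571539) lie 771 bases apart, each inside the annotated body of its gene. The upstream part that holds no annotated UTR is printed for INHA (chr2:219572060-219572194, plus strand), OBSL1 (chr2:219571540-219571789, minus strand) and INHBC (chr12:57434534-57434759, plus strand). The printed INHA stretch lies inside the annotated INHA gene body, and the OBSL1 stretch lies inside annotated OBSL1 exon sequence. Capitals mark matches to the motifs searched on both strands.
INHA: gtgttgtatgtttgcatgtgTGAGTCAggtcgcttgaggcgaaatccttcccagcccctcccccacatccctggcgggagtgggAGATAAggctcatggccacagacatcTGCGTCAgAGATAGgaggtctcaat
OBSL1: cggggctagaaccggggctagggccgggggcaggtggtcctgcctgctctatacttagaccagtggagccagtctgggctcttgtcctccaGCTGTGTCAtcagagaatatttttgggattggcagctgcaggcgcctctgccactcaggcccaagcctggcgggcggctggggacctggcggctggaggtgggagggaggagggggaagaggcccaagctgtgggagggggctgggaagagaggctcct
INHBC: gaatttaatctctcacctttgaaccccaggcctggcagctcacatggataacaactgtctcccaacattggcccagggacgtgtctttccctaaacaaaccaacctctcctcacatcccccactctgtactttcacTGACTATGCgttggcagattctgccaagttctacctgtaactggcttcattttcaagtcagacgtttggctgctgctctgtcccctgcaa

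The INHA window held TGCGTCA, the variant cyclic AMP response element described for the inhibin alpha gene, at position -140 from the RefSeq start. The same letters occurred in 2.47% of 35097 promoter windows of this length. It also held an AP-1 motif (TGAGTCA, in 4.95% of windows) at -230 and the GATA motifs AGATAA (10.3% of windows) at -166 and AGATAG (6.63%) at -132. AGATAA was also in the window of FST, at -201, and at -204 and -71 in 1 of the 2 windows of ACVR1B, which was not called. The OBSL1 and INHBC windows each held 1 match to the antioxidant response element core TGACNNNGC, at -159 and -114, which 13.3% of windows hold. The full cyclic AMP response element TGACGTCA, the ATF4 and C/EBP composite TGATGNAAT and the SMAD palindrome GTCTAGAC were in none of the windows of these 8 genes, which do not include INHBE, against 1.85%, 0.992% and 0.202% of all windows.

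The subunit genes are relatives, so the ends of their coding sequences are printed to show how far their transcripts can be told apart (last 60 coding bases before the stop, from GENCODE v29 transcripts). Capitals mark the TGT and TGC codons, which encode the cysteines typical of the end of this family.
INHA: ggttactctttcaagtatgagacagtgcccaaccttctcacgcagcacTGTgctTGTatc
INHBB: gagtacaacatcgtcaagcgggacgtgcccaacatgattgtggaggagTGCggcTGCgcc
INHBC: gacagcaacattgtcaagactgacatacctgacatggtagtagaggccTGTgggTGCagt
INHBE: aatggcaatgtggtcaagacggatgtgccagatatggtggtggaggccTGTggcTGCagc

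All 4 sequences end with a pair of cysteine codons separated by 1 other codon. INHBC and INHBE, which lie next to each other on chromosome 12 and have coding sequences of 1059 and 1053 bases with the stop, shared no identical run longer than 14 bases, tcatcagctttgct. The longest run that INHA shared with INHBE was 12 bases, and with INHBC 10 bases. INHBB, the beta B subunit gene shown beside them, shared at most 14 bases with any of the other 3.

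After oridonin, the transcripts of the subunits INHA, INHBC and INHBE and of the binding proteins FST and FSTL3 were lower, together with OBSL1, while those of the receptors ACVR1B, ACVR2A and ACVR2B were near their DMSO level. All 9 genes passed the expression filter. Of the 9, 6 were called lower, none was called higher and 3 were not called, where 21.3% of all tested genes were called lower and 20.6% higher. The groups did not overlap in the 6 genes called, and groups did not overlap in 51.6% of all tested genes, 25.6% with the oridonin values lower and 26.0% with them higher. The median log2 fold change was -0.56 over the 9 genes and 0.01 over all tested genes. In bulk RNA from a culture, fewer cells that express a gene and less RNA per cell cannot be told apart.

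**Figure D1:**
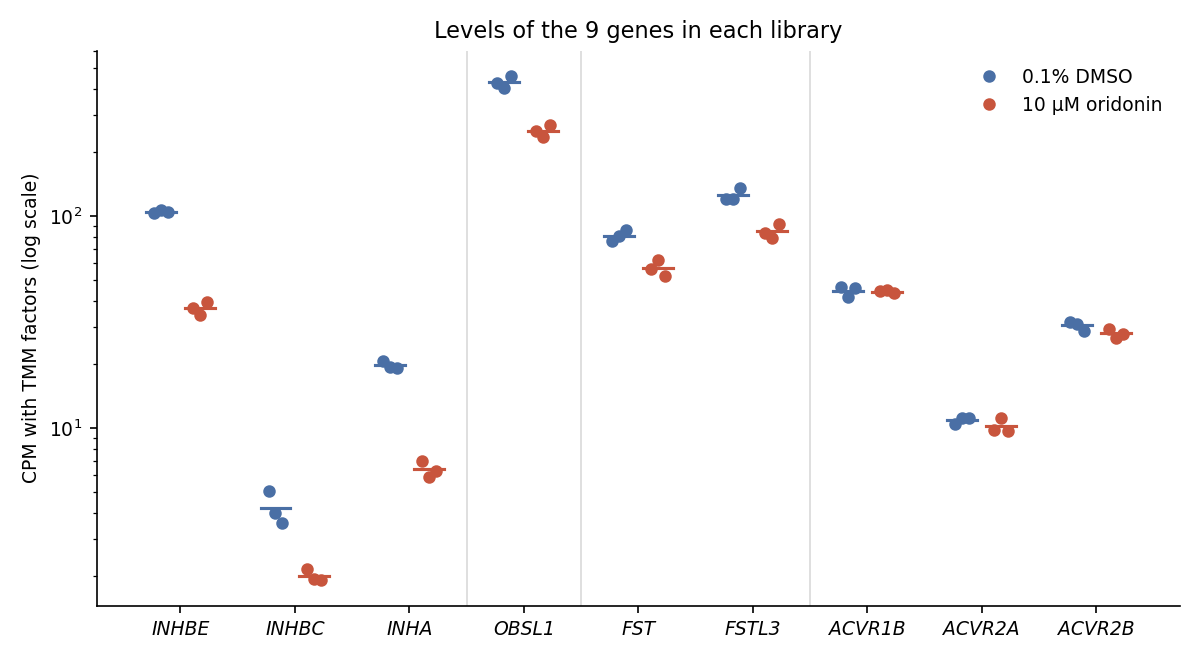
CPM of the 9 genes (log axis) in each of 3 DMSO libraries (blue points) and 3 oridonin libraries (red points), with the mean of each group as a line. The groups are apart for the 6 genes from INHBE to FSTL3 and overlap for the 3 receptor genes.

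INHBE (ENSG00000139269, hg38 chromosome 12, 57452323 to 57459280, plus strand) encodes the beta E subunit. Its level was 103, 107 and 105 CPM in DMSO libraries 1 to 3 and 37.0, 34.3 and 39.2 CPM in oridonin libraries 1 to 3. Every oridonin library was far under every DMSO library, and the spread within a group was small beside the gap. The mean fell from 105 ± 1.76 to 36.9 ± 2.45 CPM (SD, n = 3), 2.85-fold, with a log2 fold change of -1.51 ± 0.06 (SE). This put INHBE at rank 60 from the bottom of all tested genes.

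INHBC (ENSG00000175189, chromosome 12, 57434760 to 57450828, plus strand), the neighbouring gene for the beta C subunit, was expressed at a low level. Its counts were 111, 114 and 98 in the DMSO libraries and 69, 60 and 54 in the oridonin libraries, or 5.06, 4.004 and 3.58 CPM against 2.17, 1.95 and 1.91 CPM. The groups did not overlap, and the DMSO libraries were more uneven than those of INHBE. The log2 fold change was -1.05 ± 0.16 (SE), but -0.62 on the scale of log2(FPKM + 1), where the added 1 is about as large as the level itself. INHBC and INHBE overlap no annotated gene, each other included, and their transcripts share no identical run longer than 14 bases.

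INHA (ENSG00000123999, chromosome 2, 219569162 to 219575713, plus strand) encodes the alpha subunit, which pairs with a beta subunit to form an inhibin. Its level was 20.7, 19.5 and 19.2 CPM in DMSO and 7.001, 5.91 and 6.31 CPM in oridonin. The groups were well apart, and the fall from 19.8 ± 0.798 to 6.41 ± 0.553 CPM (SD, n = 3) was the largest among the 9 genes at 3.09-fold. Its log2 fold change was -1.63 ± 0.09 (SE), rank 43 from the bottom of all tested genes.

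OBSL1 (ENSG00000124006, chromosome 2, 219550729 to 219571859, minus strand) encodes obscurin-like 1, a cytoskeletal adaptor that is no part of activin signalling. It was far more abundant than INHA, at 424, 403 and 459 CPM in DMSO and 252, 236 and 269 CPM in oridonin. The groups did not overlap, and the log2 fold change of -0.76 ± 0.06 (SE) was smaller than that of INHA. The ratio of OBSL1 to INHA counts ran from 20.4 to 23.8 in DMSO and from 36.0 to 42.7 in oridonin, so the pair did not keep a fixed ratio between the treatments.

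The 2 gene bodies overlap by 2698 bases. In GENCODE v29, whose start, end and exon length matched the deposited ones for all 9 genes, INHA and OBSL1 shared 0 exon bases. The INHA exon bases inside the OBSL1 gene body were 285, or 16.3% of the INHA exon length of 1753 bases, and they belong to the first exon of a non-coding INHA transcript that lies in an OBSL1 intron. The coding transcript of INHA starts beyond the end of OBSL1. Reads from spliced OBSL1 RNA thus had no INHA exon to fall in, while reads from OBSL1 introns could fall in those 285 bases, since the strand setting is not given in the sources used here; their part in the INHA counts was not tested.

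**Figure D2:**
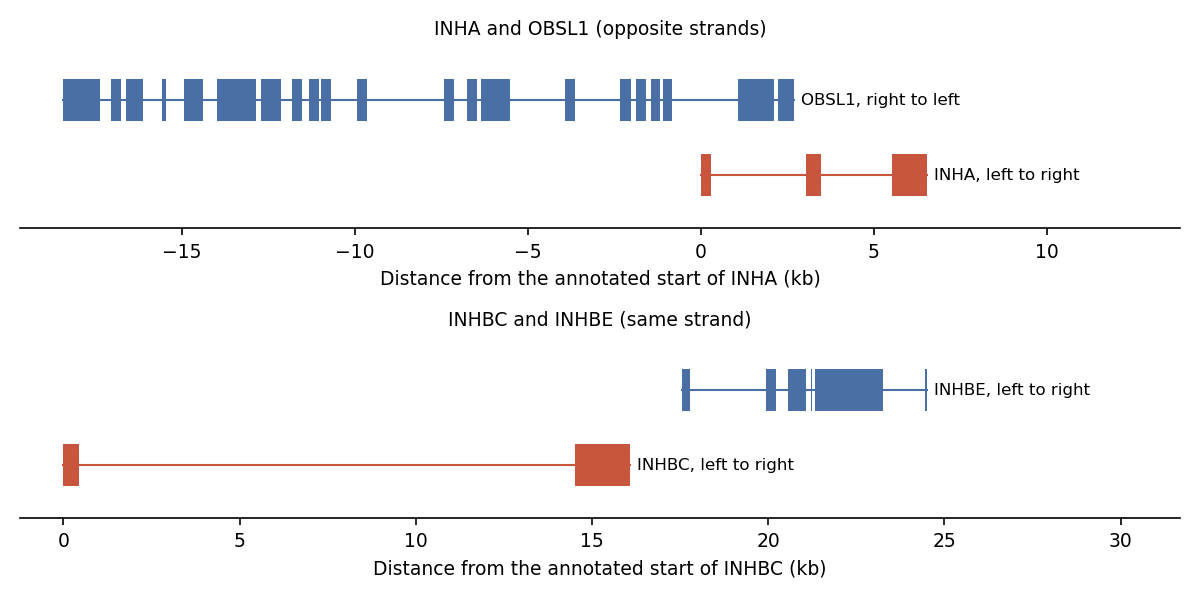
Exon blocks (boxes, all GENCODE v29 transcripts of a gene merged) and gene bodies (lines) of INHA with OBSL1 and of INHBC with INHBE, against distance in kb from the annotated start of INHA and of INHBC. The INHA and OBSL1 bodies overlap but no box of one lies under a box of the other, and INHBC ends before INHBE begins.

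FST (ENSG00000134363, chromosome 5, 53480409 to 53487134, plus strand) encodes follistatin. Its level was 76.2, 81.1 and 85.8 CPM in DMSO and 56.4, 61.9 and 52.3 CPM in oridonin, with no overlap. The mean fell from 81.0 ± 4.81 to 56.9 ± 4.85 CPM (SD, n = 3), a log2 fold change of -0.51 ± 0.07 (SE). FSTL3 (ENSG00000070404, chromosome 19, 676365 to 683399, plus strand) encodes the second activin-binding protein of this family. It stood at 120.2, 120.3 and 135 CPM in DMSO and at 83.6, 79.1 and 92.0 CPM in oridonin, again without overlap. Its mean fell from 125 ± 8.75 to 84.9 ± 6.56 CPM (SD, n = 3), a log2 fold change of -0.56 ± 0.06 (SE). These falls were close to each other in size, and the FSTL3 to FST ratio of FPKM was 1.499 ± 0.0566 in DMSO and 1.46 ± 0.234 in oridonin (SD, n = 3).

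The receptor genes were not called. ACVR1B (ENSG00000135503, chromosome 12, 51951667 to 51997078, plus strand), which encodes the type I receptor of activin A and B, had 46.5, 41.4 and 45.8 CPM in the DMSO libraries and 44.2, 44.9 and 43.3 CPM in the oridonin libraries. The oridonin values lay inside the DMSO range, and the log2 fold change of -0.01 ± 0.06 (SE) changed sign in 8 of 15 other settings. ACVR2A (ENSG00000121989, chromosome 2, 147844517 to 147930826, plus strand), a type II receptor gene, was at 10.5, 11.1 and 11.2 CPM in DMSO and 9.86, 11.2 and 9.71 CPM in oridonin. The groups overlapped, with a log2 fold change of -0.10 ± 0.09 (SE). Of the ACVR2A exon bases, 430 (6.35%) are also exon of ORC4, a replication origin gene on the opposite strand with a level of 43.3 ± 1.31 CPM in DMSO (SD, n = 3), so the ACVR2A value is uncertain without a known strand setting.

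ACVR2B (ENSG00000114739, chromosome 3, 38453851 to 38493142, plus strand), the other type II receptor gene, was at 31.9, 30.98 and 28.9 CPM in DMSO and 29.5, 26.6 and 27.9 CPM in oridonin. The lowest DMSO library lay under the highest oridonin library, and the log2 fold change was -0.12 ± 0.07 (SE). Per length, the summed level of the 3 receptor genes was 11.3 ± 0.444 FPKM in DMSO and 11.1 ± 0.201 FPKM in oridonin (SD, n = 3).

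The order of levels per length put OBSL1 (44.3 ± 3.19 FPKM) and FSTL3 (40.6 ± 3.24 FPKM) first in DMSO, with ranges that overlapped. INHBE followed at 34.6 ± 0.731, FST at 27.1 ± 1.78, INHA at 11.2 ± 0.362 and ACVR1B at 7.77 ± 0.488 FPKM (SD, n = 3), each clear of its neighbours. INHBC (2.10 ± 0.358 FPKM) and ACVR2B (1.93 ± 0.0829 FPKM) overlapped, and ACVR2A was lowest at 1.61 ± 0.0647 FPKM (SD, n = 3). In oridonin INHBE stood below FST, at 12.3 ± 0.855 against 19.2 ± 1.62 FPKM, INHA stood below ACVR1B, at 3.66 ± 0.294 against 7.80 ± 0.136 FPKM, and INHBC was lowest at 1.02 ± 0.0623 FPKM (SD, n = 3).

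The beta subunit pool changed its make-up as well as its size. INHBB, the beta B subunit gene, is no member of the set but is the other abundant beta subunit gene in these cells, at 63.4, 72.2 and 78.6 CPM in DMSO and 74.0, 66.5 and 82.1 CPM in oridonin. It was not called (log2 fold change 0.05 ± 0.09 (SE), edgeR adjusted p = 0.663). INHBA, the beta A subunit gene, had at most 2 counts in a library, under a floor of 3 counts, and was not tested. The summed FPKM of INHBE, INHBB and INHBC was 58.8 ± 2.79 in DMSO and 36.5 ± 3.34 in oridonin (SD, n = 3). INHBE made up 60.7%, 59.2% and 56.9% of this sum in the DMSO libraries and 33.5%, 34.5% and 33.0% in the oridonin libraries. INHBB took from 34.8% to 40.2% in DMSO and from 62.6% to 64.6% in oridonin, so that the leading beta subunit transcript was INHBE in every DMSO library and INHBB in every oridonin library.

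**Figure D3:**
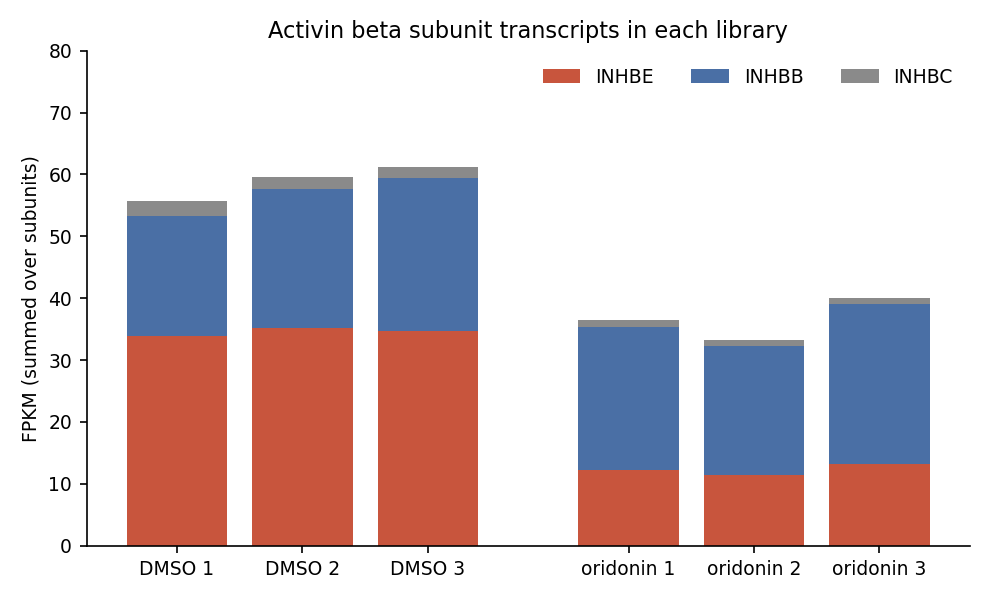
FPKM of the beta subunit genes INHBE (red), INHBB (blue) and INHBC (grey), stacked for each of the 6 libraries. The INHBE part is the larger one in all 3 DMSO libraries and the INHBB part in all 3 oridonin libraries, while the height of the INHBB part is alike in both groups.

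Ratios within a library do not depend on the scaling of libraries. The INHBE to INHBB ratio of FPKM was 1.58 ± 0.163 in DMSO and 0.530 ± 0.0203 in oridonin (SD, n = 3). The ratio of INHA to the summed beta subunits was 0.209, 0.185 and 0.180 in DMSO and 0.109, 0.102 and 0.0908 in oridonin. The alpha subunit transcript thus fell by more than the beta pool, which holds the uncalled INHBB. The falls of INHA and of INHBE alone were closer, with log2 fold changes of -1.63 and -1.51. The ratio of FST and FSTL3 together to the summed beta subunits was 1.15 ± 0.0447 in DMSO and 1.30 ± 0.106 in oridonin (SD, n = 3), with the highest DMSO library at 1.196 and the lowest oridonin library at 1.202. The gap between these 2 libraries was smaller than the spread within either group.

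**Figure D4:**
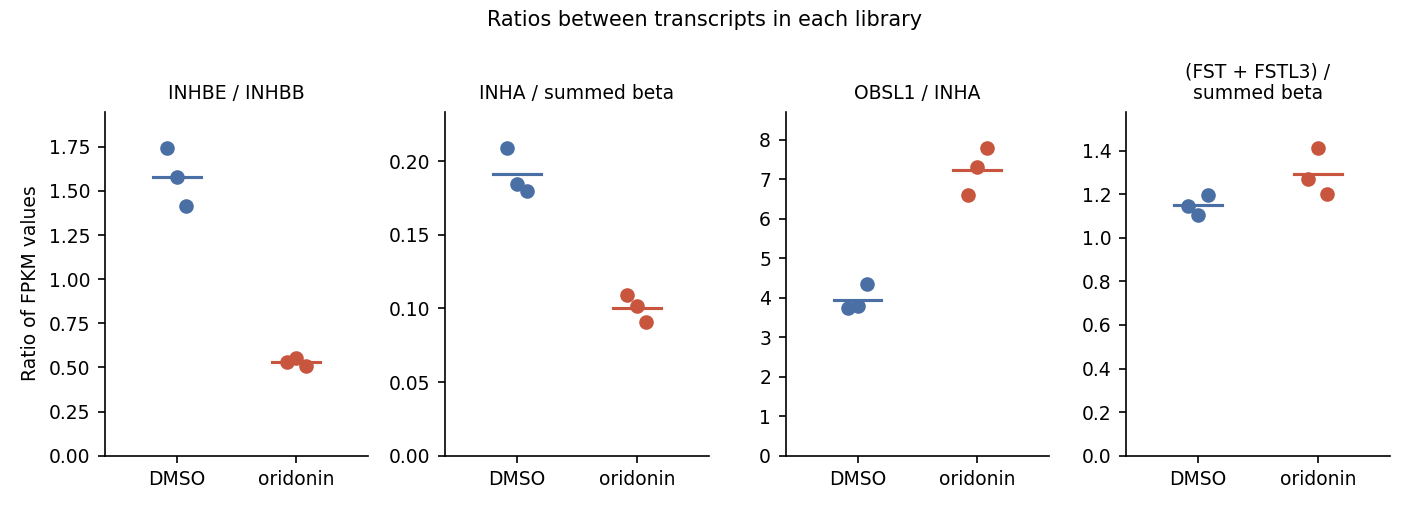
Ratios of FPKM values in each of 3 DMSO libraries (blue) and 3 oridonin libraries (red), with group means as lines and axes from 0. INHBE over INHBB and INHA over the summed beta subunits are lower in oridonin, OBSL1 over INHA is higher, and the binding protein ratio differs least.

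The other genes of the pathway were counted from lists drawn up by function, with earlier results of these data known, so their counts are no independent evidence of a direction. Of the 66 symbols in 5 TGF-beta family lists, 49 genes were tested, each counted once here. Of these 49, 9 were called higher and 21 lower, where 20.6% of all tested genes were called higher and 21.3% lower. The median log2 fold change over the 49 was -0.10. The same shares over all tested genes apply to each list below. SMAD7, SKIL and PMEPA1 stand both in the list of SMADs and their regulators and in that of SMAD2 and SMAD3 readouts. None of 4 tested ligands other than the members was called. TGFB1, the most abundant of them, had a log2 fold change of 0.26 ± 0.10 (SE, edgeR adjusted p = 0.0754) and passed the threshold when DMSO library 3 was left out, at 0.39, as it did under 3 more settings. Of the 10 symbols in this list, 6 were too weakly expressed to be tested, among them NODAL and MSTN.

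Of 12 tested co-receptors, binding proteins and convertases, 6 were called lower and 2 higher (median -0.27). The 2 higher ones were weakly expressed and none was called higher by DESeq2 or limma. PCSK5, a convertase gene with 50 to 109 counts per library, had a log2 fold change of 0.52 ± 0.16 (SE, edgeR adjusted p = 0.0127) under this test, but it lost its call in 5 of 14 other settings, without DMSO library 2 (0.45) and without oridonin library 2 (0.46) among them. LTBP1, a latent TGF-beta binding protein gene with 5 to 28 counts per library and named after its value was seen, stood at 1.17 ± 0.34 (SE, edgeR adjusted p = 0.01077). TGFBR3, which encodes betaglycan, the co-receptor that lets inhibin compete for type II receptors, fell from 281 ± 7.24 to 207 ± 10.6 CPM (SD, n = 3), a log2 fold change of -0.44 ± 0.05 (SE, edgeR adjusted p = 2.041e-06). IGSF1, an immunoglobulin family membrane protein once put forward as an inhibin co-receptor, fell from 40.4 ± 1.15 to 18.5 ± 0.727 CPM (SD, n = 3). TDGF1, the NODAL co-receptor cripto, and WFIKKN1, which binds myostatin and GDF11, fell at log2 fold changes of -1.07 and -0.98, and the value of TDGF1 is uncertain where its pseudogenes took some of its reads. FURIN, a convertase that cuts the precursors of this family, was not called at -0.10 ± 0.06 (SE, edgeR adjusted p = 0.1996).

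Among 5 other tested receptors of the family, 2 were called higher and 2 lower, and the median of -0.05 turned to 0.03 with total-count scaling. TGFBR2, the type II receptor of TGF-beta, rose from 314 ± 15.8 to 465 ± 7.44 CPM (SD, n = 3), a log2 fold change of 0.56 ± 0.05 (SE, edgeR adjusted p = 9.457e-08). ACVR1, a type I receptor used mainly by BMPs, rose at 0.24. TGFBR1 fell at -0.24 and was not called with total-count scaling, at -0.16. ACVR1C, which encodes the receptor through which the beta E subunit acts on fat cells, was too low to test, with 1 to 8 counts in a library.

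SMADs and their regulators went both ways, with 3 of 18 called higher and 6 lower. SMAD2, SMAD3 and SMAD4, the transcription factors of the activin pathway, were not called in this fit. SMAD2 was at 57.1 ± 1.03 CPM in the DMSO libraries and 57.0 ± 2.03 CPM in the oridonin libraries (SD, n = 3), and the log2 fold change of SMAD4 was -0.07. SMAD3 stood at 0.12 (edgeR adjusted p = 0.0803) and was called higher with total-count scaling (0.20), with the replicate block (0.12) and without DMSO library 3 (0.14). SMURF2, a ubiquitin ligase that marks SMADs and receptors for breakdown, rose from 35.7 ± 1.74 to 64.1 ± 1.39 CPM (SD, n = 3), which is 0.84 ± 0.06 on the log2 scale (SE, edgeR adjusted p = 6.203e-09), and its relative SMURF1 rose at 0.31. The SMAD co-repressors SKI and SKIL fell at -0.50 and -0.40. With total-count scaling the list had 6 higher and 6 lower, and its median changed from -0.03 to 0.05.

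Of 13 tested transcripts that are often used as readouts of SMAD2 and SMAD3, 8 were called lower and 2 higher (median -0.28). CCN2, a matricellular protein gene, fell from 182 ± 6.94 to 89.4 ± 3.598 CPM (SD, n = 3), and THBS1, which encodes thrombospondin, at a log2 fold change of -0.66. CDKN2B, a cell cycle inhibitor gene, rose from 8.01 ± 1.495 to 31.7 ± 0.998 CPM (SD, n = 3), which is 1.99 ± 0.10 on the log2 scale (SE, edgeR adjusted p = 5.18e-10), and LTBP2 rose at 1.30. SMAD7, the inhibitory SMAD that the pathway itself induces, was not called at -0.11 ± 0.06 (SE, edgeR adjusted p = 0.131). These genes answer to other pathways too, so their counts are no measure of activin signalling.

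Of 15 tested ATF4 and integrated stress response genes, to which INHBE is known to respond in liver cells, 12 were called lower and 1 higher (median -0.52). PHGDH and DDIT4 had log2 fold changes of -0.83 and -0.84, and ATF4 itself, the transcription factor, fell from 639 ± 36.9 to 447 ± 13.2 CPM (SD, n = 3). The log2 fold change of INHBE was -1.51, and the part of this response in it was not tested. FGF21, from the same list, had 1 to 9 counts in a library and was too low to test. The call of PPP1R15A, higher at 0.29, was lost in 6 of 15 other settings.

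**Figure D5:**
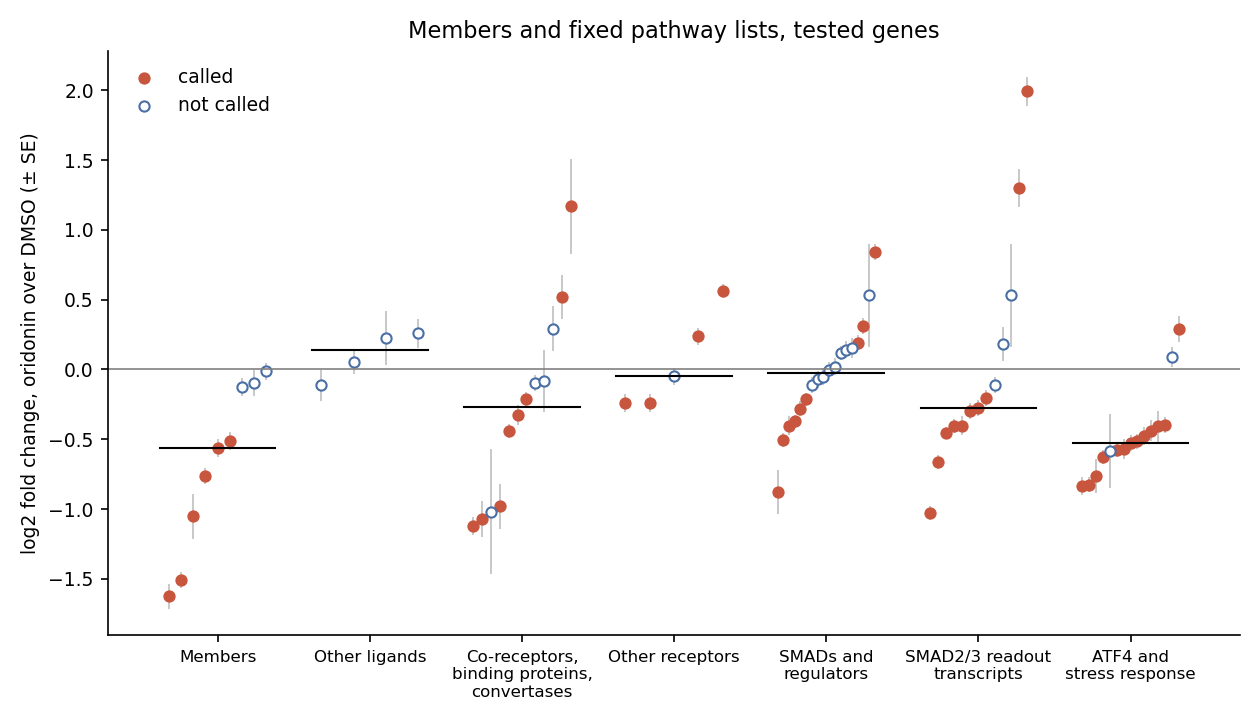
Log2 fold change with its SE (bars) for the tested genes among the 9 members and in 6 fixed lists, ordered by value within a list, with the list's median as a black line. Filled points were called by edgeR and open points were not. The members span -1.63 to -0.01, and the list of other ligands holds no filled point.

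HepG2 was checked against cell type markers because inhibin is best known from the gonads and the pituitary. All 10 hepatocyte markers were above 1 CPM, and their summed level ran from 27501 to 31392 CPM of total counts in DMSO and from 17120 to 19674 in oridonin. Every oridonin library was below every DMSO library for 7 of the 10, ALB and APOB among them, and above for 1, FGB, which ran from 5.05 to 6.10 in DMSO and from 12.9 to 14.8 in oridonin. HNF4A, a hepatocyte transcription factor gene, and TTR overlapped between the groups, and the part of these shifts in the values of the 9 genes was not tested. The granulosa and Sertoli cell markers FSHR, AMH, AMHR2 and FOXL2 had at most 9 counts in any library, and of 4 pituitary genes FSHB and POU1F1 had 0 counts, GNRHR at most 6 and LHB from 9 to 16. From the same gonadal list, NR5A1, which encodes a steroidogenic factor that activates INHA in gonadal cells, had a mean of 80.8 ± 6.26 CPM with DMSO and 85.7 ± 2.74 CPM with oridonin (SD, n = 3), and it was not called at 0.08 ± 0.06 (SE, edgeR adjusted p = 0.274). CYP19A1, the aromatase gene, fell from 7.78 ± 0.385 to 4.19 ± 0.440 CPM (SD, n = 3). NR5A1 and CYP19A1 were singled out after their values were seen. CD79A, a B cell receptor chain gene and the highest of the B cell markers in DMSO library 1, rose from 1.33 ± 0.154 to 17.7 ± 2.70 CPM (SD, n = 3). IGHA1 of the same list was uneven within each group, with 1, 111 and 156 counts in DMSO libraries 1 to 3. It had 254, 951 and 776 counts in oridonin libraries 1 to 3. The part of these markers in the values of the 9 genes was not tested.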

How the data were processed

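Whole-transcriptome RNA sequencing was done on 6 HepG2 libraries. The authors deposited raw counts per Ensembl gene, whole numbers without scaling. They also deposited log2 FPKM values with gene coordinates and lengths, for 18404 genes. Build hg38 and DESeq2 1.10.1 are named, per the submitters' processing notes, with no role stated. Which aligner, counting program and strand option were used is not given in the sources used here.

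Columns were tied to libraries by the names in the labels. Counts were filtered with filterByExpr at its defaults, scaled by the TMM method and compared by edgeR 4.0.16 (R 4.3.3), whose robust quasi-likelihood fit had treatment as its only term. The SE is the size of the log2 fold change divided by the square root of F. The script was tested on simulated data. FPKM values are powers of 2 of the deposited log2 values. Alternatives (15) covered scaling, filters, DESeq2 1.42.0, limma 3.58.1 on the deposited values, a replicate block and leaving out each library. Pairs of libraries within a group differed by 7.32 to 9.78 in chi-square per gene, far beyond sampling noise, so none was counted as a repeat. The labels name no molecular identifiers, so the floor of 3 counts covers counting error only.

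The members and gene lists were chosen with earlier results of these data known. Named were all 9 members, up to 4 called genes per pathway list and direction by size of change, the 2 uncalled genes with the highest level, 3 tested neighbours per side of each gene pair, and the 5 genes most like INHA and INHBE; fewer are named for space, and SMAD2, SMAD4, ATF4, INHBA, ACVR1C and the marker genes were added. Exons came from GENCODE v29 and promoters from RefSeq (GRCh38.p14).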

Additional observations from a re-analysis of the deposited data

How the results depend on the processing

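The same 6 members were called lower under all 15 alternatives, and their log2 fold changes stayed between -1.70 and -1.39 for INHA, -1.56 and -1.42 for INHBE, -1.16 and -0.62 for INHBC, -0.81 and -0.68 for OBSL1, -0.58 and -0.43 for FST and -0.62 and -0.48 for FSTL3. The receptor genes were called under none of them. Of the 6332 genes called in the main fit, between 4851 and 6325 were called again under an alternative. The members were selected on fold changes in these same libraries, so their kept calls are a description only. The number of genes called ran from 5105 (log2 FPKM with a mean of at least 1) to 7689 (replicate block), and from 5282 to 6547 with 1 library left out. Of the 64 tested genes in all 6 pathway lists, the ATF4 list included and each gene counted once, 43 were called in the main fit. Over all tested genes, 41.9% were called. Under the alternatives the number of pathway genes called ran from 37 to 50.

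The replicate block raised the calls from 6332 to 7689 and the pathway genes called from 43 to 50, and it left the 6 members called. The labels do not say what a shared replicate number means. Deviations from the group means correlated at 0.19, 0.07 and 0.17 for same-numbered libraries, and every library correlated best with its own number. The main fit held no block because the labels do not state a pairing, and these correlations do not settle whether there was one.

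Of 563 repeats over 38 named pathway genes, 14 lost a call, 15 gained one and 0 reversed. For INHBC the level, 54 to 114 counts per library, limits the precision.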

Other observations

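The 3 nearest tested genes on each side of the 2 gene pairs did not all fall with them. For INHA and OBSL1, 3 of 6 were called lower and 2 higher, and for INHBC and INHBE 3 of 6 were called lower and none higher. Over all tested genes, 21.3% were called lower and 20.6% higher. Of the 2 called higher, SGPP2 lies 2848803 bases from the pair and ran from only 0.584 to 1.26 CPM. Beside INHA and OBSL1 on chromosome 2, TMEM198, whose end is separated from OBSL1 by a gap of 133 bases, had a log2 fold change of -0.34 ± 0.10 (SE, edgeR adjusted p = 0.0176), the proteoglycan synthesis gene CHPF was not called at -0.01, and the anion exchanger gene SLC4A3 rose at 0.65. Beside INHBC and INHBE on chromosome 12, R3HDM2 (-0.14), NDUFA4L2 and ARHGAP9 were not called, whereas SHMT2, the mitochondrial serine hydroxymethyltransferase gene, fell at -0.61, MARS1, a methionyl-tRNA synthetase gene, at -0.25 and DDIT3, the gene of the stress factor CHOP, at -0.76. NDUFA4L2 had 17 to 26 counts per library and ARHGAP9 9 to 13, so a fall in these genes could be missed. The gene bodies of MARS1 and DDIT3, MARS1 and ARHGAP9, SHMT2 and NDUFA4L2, and TMEM198 and CHPF overlap on opposite strands, which makes their values uncertain.

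Likeness to INHBE was measured as the Euclidean distance between log2 CPM values set to the DMSO mean, over 6 libraries and among 9174 other protein-coding genes with at least 10 CPM. IGF2, a fetal growth factor gene, was nearest at 0.13 and LCN15 next at 0.15, followed by INHA at 0.28, BPIFB2 at 0.29 and SSC4D at 0.29. IGF2 was also nearest to INHA, at 0.17, before the erythropoietin gene EPO at 0.19, KANK4 and SSC4D at 0.27 each and INHBE at 0.28. With 2 treatments of 3 libraries each, this distance mostly compares the size of the fall.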
